A study of Mus musculus with 2931 samples.

Results

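The genes described here are inhibitors of the cyclin-dependent kinases (CDKs) and the cyclins of the G1 phase, the stretch of the cell cycle before DNA is copied. They were chosen by symbol from a list of 10: the inhibitors Cdkn1b, Cdkn2a, Cdkn2b, Cdkn2c and Cdkn2d, the D-type cyclins Ccnd1, Ccnd2 and Ccnd3, and the E-type cyclins Ccne1 and Ccne2. Of these, 9 had a row among the 18072 gene symbols of the count table, and Cdkn2a had none in the table used here and was not analysed here. The table holds reads of 2931 single endothelial cells (EC, the lining of blood and lymph vessels) from distal mouse lung, sorted mostly for the surface protein CD31. Each of 5 groups had a female and a male mouse, 10 in all. In normal air the ages were E18.5, before birth, and P1, P7 and P21 in days after it, and the last group was taken at P7 after hyperoxia, that is, breathing raised oxygen. No strain, genotype, oxygen level or length of exposure is given in the labels, and no transgene is named. The labels do not say if each named mouse was a single animal or a pool. The p-values below rest on the spread between the 2 sums within groups, estimated over all usable groups of a class together. Each group is a female and a male, so that spread includes sex, and the sequencing run where it differed. The authors gave each cell 1 of 10 subtype labels, among them proliferative EC, nonproliferative embryonic EC, Early and Late Car4- capillaries, Car4+ capillaries and venous EC.

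Progress through G1 depends on a balance between cyclins and inhibitors. D-type cyclins bind Cdk4 or Cdk6 and begin the phosphorylation of the retinoblastoma protein Rb1. This frees transcription factors of the E2F family, whose targets include the E-type cyclins, and Cdk2 with an E-type cyclin then carries the cell into S phase. The INK4 inhibitors (Cdkn2b for p15, Cdkn2c for p18, Cdkn2d for p19) bind Cdk4 and Cdk6 and keep D-type cyclins from activating them, while the Cip/Kip inhibitor Cdkn1b (p27) blocks Cdk2 complexes and is controlled largely at the protein level, which RNA does not show.

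A value in CPM below is the number of reads of a gene per 1000000 reads, after the reads of all cells of 1 label or class in 1 mouse were summed. A sum was used where it held at least 8 cells. All 6 endothelial markers checked (among them Pecam1 and Cdh5) were read in every sum. Mice held between 212 and 359 cells and between 56564316 and 331392982 reads, the lowest in the P7 male and the highest in the P7 female. The CD31-gate cells of the female E18.5, P1 and P21 mice shared 1 sequencing run, and those of the male E18.5, P7, P21 and hyperoxia mice shared another. No such pair existed for P7 against P1, so there a difference of age cannot be told apart from one of run. The label named for growth was checked against its defining marker: the proliferation marker Mki67 lay between 495.7 and 2226 CPM in proliferative EC, and between 0.787 and 15.6 in Early Car4- capillaries. It was at 32.03 and 38.6 CPM in nonproliferative embryonic EC, whose 5 proliferation markers summed to 252 and 298 CPM, against 34.1 to 135 CPM in Early Car4- capillaries. In lymphatic EC, a label not named for growth, Mki67 lay between 81.8 and 346 CPM. A summed level cannot tell fewer cells that use a gene from less RNA in each of them.

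The D-type cyclins were the most abundant cyclins of the list and were read in every label. Over the 50 sums of a label in a mouse, and per kilobase of annotated exon so that genes can be compared, Ccnd1 had a median level of 69.1 CPM per kb, Ccnd2 of 37.2 and Ccnd3 of 22.2. Among the inhibitors, Cdkn2d had a median of 31.02 CPM per kb and Cdkn1b of 14.2. Cdkn2c had 1.68 and Cdkn2b 0.223 CPM per kb, and the E-type cyclins lay at 3.29 (Ccne2) and 0.0599 (Ccne1). Ccne1 and Cdkn2b had 0 reads in 22 sums each, Cdkn2c in 14, Ccne2 in 5 and Cdkn2d in 4, while Cdkn1b and the 3 D-type cyclins had reads in all 50. Of the 2931 cells, 65.1% had a read of Ccnd2, 62.6% of Ccnd1, 62.2% of Cdkn1b and 58.0% of Ccnd3. The other members were read in fewer cells, from 6.48% for Ccne1 and 7.71% for Cdkn2b to 20.9% for Cdkn2d.

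**Figure D1:**
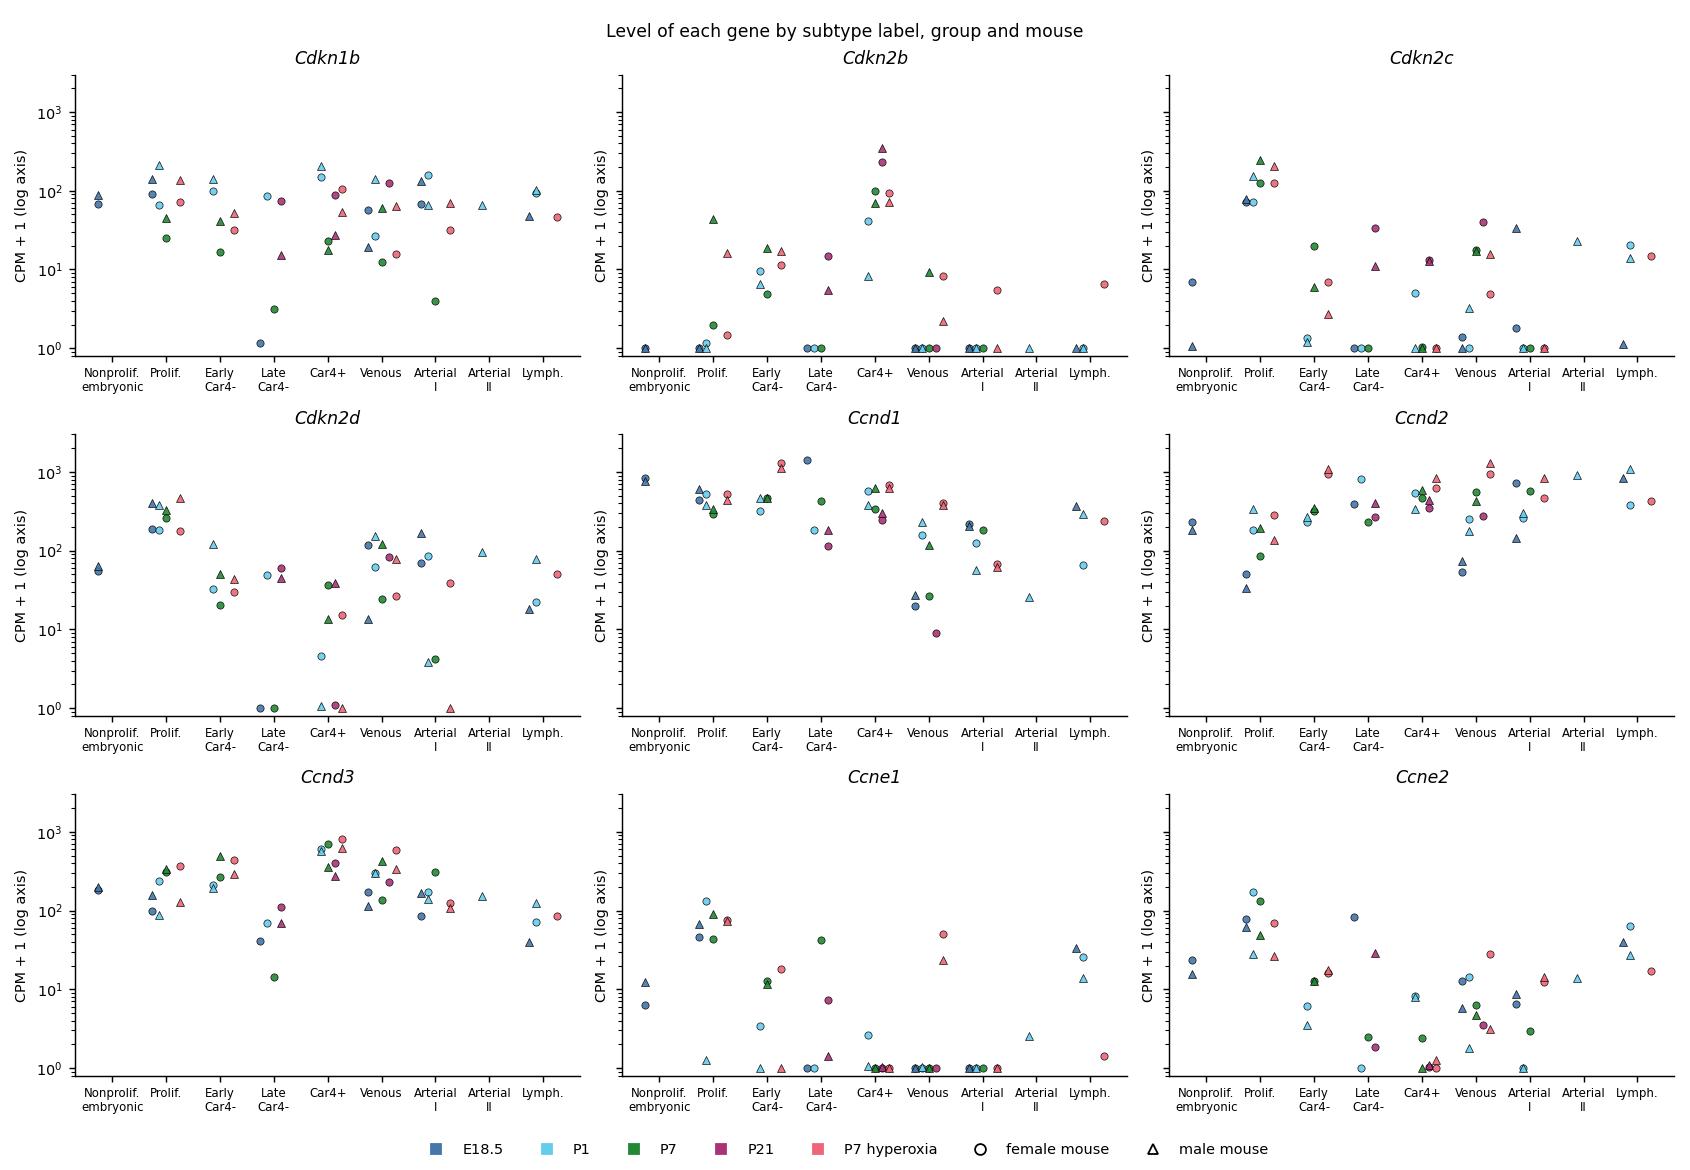
Level of each of the 9 genes in CPM plus 1 on a log axis, by the authors' subtype label; each point is the sum of 1 mouse (circle female, triangle male), coloured by group. Cdkn2b stands highest in Car4+ capillaries, where its 8 sums lie between 7.23 and 352 CPM, and Cdkn2c and Cdkn2d in proliferative EC, while Ccnd2 in the 2 E18.5 sums of proliferative EC lies at 48.9 and 32.5 CPM.

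The members differed in the label in which they were highest. Cdkn2c had a median of 125 CPM in proliferative EC (8 mice, 70.2 to 246) and at most 38.6 CPM in any sum of another label that held 8 cells or more. Cdkn2d had a median of 295 CPM there (175.5 to 463), and its next labels with more than 1 sum, venous EC (median 77.01, range 12.5 to 152) and nonproliferative embryonic EC (54.0 and 63.7 CPM in the female and male mouse), overlapped each other. Ccne1 and Ccne2 were also highest in proliferative EC, with medians of 70.3 and 64.9 CPM, but their ranges there (0.245 to 131 and 25.6 to 169) overlapped those of lymphatic EC (0.406 to 32.2 and 15.8 to 62.4) and of Late Car4- capillaries (0 to 41.8 and 0 to 83.0). Cdkn2b was highest in Car4+ capillaries, with a median of 82.7 CPM (7.23 to 352), followed by Early Car4- capillaries at 9.58 (3.87 to 17.9). In Car4+ capillaries, Ccnd3 also had its highest median, 587 CPM (276 to 803), overlapping venous EC (median 295, 114 to 589). Ccnd1 was highest in the embryonic label, at 847 and 757 CPM, which lay within the range of Early Car4- capillaries (318 to 1315). Ccnd2 was at 925.5 CPM in the single sum of Arterial EC II, had a median of 628.5 CPM in lymphatic EC (379 to 1081) and its lowest median, 158 CPM (32.5 to 340), in proliferative EC. Cdkn1b differed little between labels: all medians of labels with more than 1 sum lay between 45.8 and 80.7 CPM except in Late Car4- capillaries (14.5), and the ranges overlapped. The authors drew the labels from the expression of the same cells, so these orders are a description without a test.

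Proliferative EC were set against noncycling EC of the same mouse, which were nonproliferative embryonic EC at E18.5 and Early Car4- capillaries at P1, P7 and P7 hyperoxia. Cdkn2c and Cdkn2d, both inhibitors of Cdk4 and Cdk6, were higher in the cycling cells by more than 2-fold in each of the 8 mice, and the E-type cyclins were higher in all 8 and past 2-fold in 7. Cdkn2c lay between 70.2 and 246 CPM in proliferative EC and between 0.0730 and 18.6 CPM in noncycling EC, and no mouse of one kind overlapped the other. Its log2 ratio (of CPM plus 1) had a median of 5.56 and ranged from 2.66 to 7.004. The size rests on the pseudocount, with a median of 6.21 at 0.1 CPM and of 3.92 at 5 CPM. Cdkn2d had a median log2 ratio of 2.61 (1.64 to 3.64). For Ccne1 the median was 2.68, with the lowest value, 0.32, in the P1 male mouse, whose 9 proliferative EC held Ccne1 at 0.245 CPM, and the highest, 6.22, in the male hyperoxia mouse. For Ccne2 it was 2.06, from 0.61 in the male hyperoxia mouse to 4.81 in the P1 female.

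The D-type cyclins did not share this direction. Ccnd2 was lower in proliferative EC in 7 of 8 mice, with a median log2 ratio of -1.82 (-3.01 to 0.35), and the exception was the P1 male. Ccnd1 was lower in 7 of 8 mice (median -0.57, -1.36 to 0.72) and Ccnd3 in 6 of 8 (median -0.44, -1.21 to 0.22). Cdkn1b was higher in 7 of 8 mice, by a median of 0.61 (-0.58 to 1.40), and Cdkn2b was higher in 1 of 8. With each cell thinned to 50000 reads, so that depth is equal, a median of 54.1% of proliferative EC and 1.17% of noncycling EC of a mouse had a read of Cdkn2c, against 62.4% and 3.55% without thinning. The same medians were 57.0% and 11.5% for Cdkn2d, 34.3% and 8.55% for Ccne2, 26.4% and 2.37% for Ccne1, and 36.9% and 61.0% for Ccnd2.

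**Figure D2:**
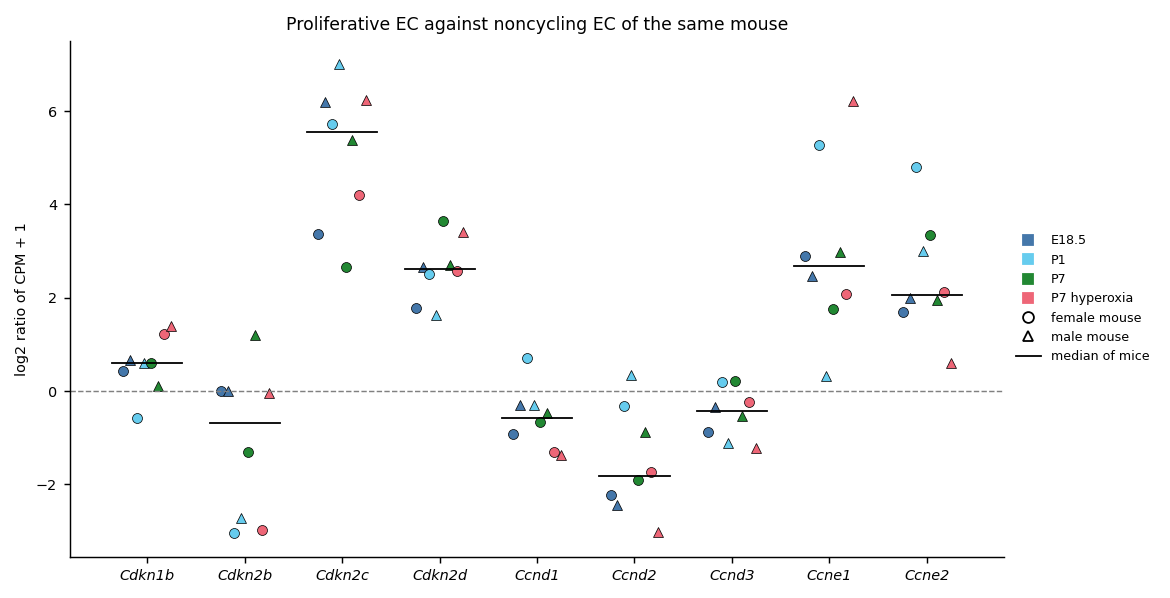
Log2 ratio of CPM plus 1 in proliferative EC over noncycling EC of the same mouse, for each gene; each point is 1 of 8 mice (circle female, triangle male, coloured by group), the black line is the median of the mice and the dashed line marks no difference. All points of Cdkn2c, Cdkn2d, Ccne1 and Ccne2 lie above 0, and 7 of 8 points of Ccnd1 and of Ccnd2 lie below it.

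Of the 9 members, 2 had a log2 ratio over 1 in every mouse and 0 a ratio under -1 in every mouse, where 2.4% and 0.0593% of the 10123 genes with a mean of at least 5 CPM did. A ratio over 0 in every mouse was seen for 4 of 9 members and for 5.87% of all genes. Since the authors' labels rest on the same cells, nothing is tested by these counts. Among 28 further genes of G1 and cell cycle control that passed the same minimum, 9 had a log2 ratio over 1 in every mouse. The partners of the members differed less: the median was 0.17 for Cdk4, -0.36 for Cdk6 and 0.89 for Cdk2. Cdkn1a, the p53-controlled relative of Cdkn1b, had a median of 0.54 and was higher in 6 of 8 mice.

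The sequences just before the start of transcription are shown for the 3 genes of this cycling group that have an entry in the RefSeq promoter table, because E2F factors act at such sites. Each is the 250 bases before an annotated start, on build GRCm38.p6 and on the minus strand, printed from 5′ to 3′, and capitals mark a match to a core of the E2F motif.
Cdkn2c, chr4:109666757-109667006: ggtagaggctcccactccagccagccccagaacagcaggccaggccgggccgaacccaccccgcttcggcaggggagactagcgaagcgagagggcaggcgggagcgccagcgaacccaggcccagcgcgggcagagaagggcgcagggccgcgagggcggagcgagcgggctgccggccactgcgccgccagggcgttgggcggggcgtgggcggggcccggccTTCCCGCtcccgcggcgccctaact
Cdkn2d, chr9:21291210-21291459: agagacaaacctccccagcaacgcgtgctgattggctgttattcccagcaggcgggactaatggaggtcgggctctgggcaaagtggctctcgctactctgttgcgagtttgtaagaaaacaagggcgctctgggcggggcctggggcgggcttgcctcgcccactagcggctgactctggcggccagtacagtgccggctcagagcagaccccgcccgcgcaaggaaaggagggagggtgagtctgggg
Ccne1, chr7:38107491-38107740: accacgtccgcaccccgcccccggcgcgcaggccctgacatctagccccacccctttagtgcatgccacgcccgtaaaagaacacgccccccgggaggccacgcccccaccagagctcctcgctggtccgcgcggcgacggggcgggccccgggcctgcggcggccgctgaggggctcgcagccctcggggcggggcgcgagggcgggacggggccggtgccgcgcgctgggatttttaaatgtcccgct
The search for the core (spelled TTCCCGC, or with other inner letters as TTGGCGC, or as the variant TTCGCGC, or lastly as TTGCCGC, on both strands) followed a search for the same letters with a T before them, which matched in 0 of the 8 entries of 6 members and in 1.86% of all 32851 promoter windows of this length. The core matched in 1 of the 8 member entries, the printed one of the 2 of Cdkn2c, with its first base at -25 from the start, and in 7.89% of all windows. The motif TTTGAA, known as CHR and common before genes of mitosis, matched in the Cdkn2b entry alone among the members and in 15.99% of all windows. A match is a description of letters, and a window without one says nothing of the factor.

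Within the 390 proliferative EC, the members differed with the phase of the cycle. Each cell received the mean log2(CPM plus 1) of 14 genes of DNA replication minus that of 14 genes of mitosis, none of them members, and the cells were divided at the median difference of -2.18 into an S range and a mitosis range. The score is continuous, and 47 cells lay within 0.5 of that median. The D-type and the E-type cyclins were all higher in the S range, and Cdkn2c and Cdkn2d higher in the mitosis range, in each of the 8 mice. For Ccne2 the log2 ratio of the S range over the mitosis range had a median of 4.69 (2.56 to 7.78), for Ccne1 of 2.73 (0.57 to 6.18) and for Ccnd2 of 2.36 (0.61 to 6.16). Ccnd3 (median 1.40, 0.66 to 2.39) and Ccnd1 (median 1.36, 0.34 to 2.45) differed less.

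The P7 female mouse is given as an example, with 32 cells in the S range and 23 in the mitosis range. For Cdkn2d it had the ratio furthest from 0 of the 8 mice (-2.71). There Ccne2 had 215 and 7.69 CPM, Ccnd2 128 and 23.9 CPM, and Cdkn2d 78.1 and 516 CPM in the S and the mitosis range. Thus, in that mouse, the D-type cyclin and the INK4 inhibitor stood on opposite sides. Cdkn2d had a median log2 ratio of -1.21 (-2.71 to -0.18) and Cdkn2c of -0.65 (-6.24 to -0.03), the latter close to 0 in the E18.5 male (-0.03) and in the female hyperoxia mouse (-0.06). Cdkn1b was lower in the S range in 7 of 8 mice (median -0.52, -3.38 to 0.31), while Cdkn1a was higher there in all 8 (median 0.59). Cdkn2b was higher in the S range in 4 of 8 mice. A log2 ratio over 0 in every mouse was found for 5 of 9 members and for 2.16% of 10053 genes, and one under 0 for 2 of 9 members and 1.44% of genes. The P1 mice gave few cells to this split, 9 and 4 in the female and 4 and 5 in the male.

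**Figure D3:**
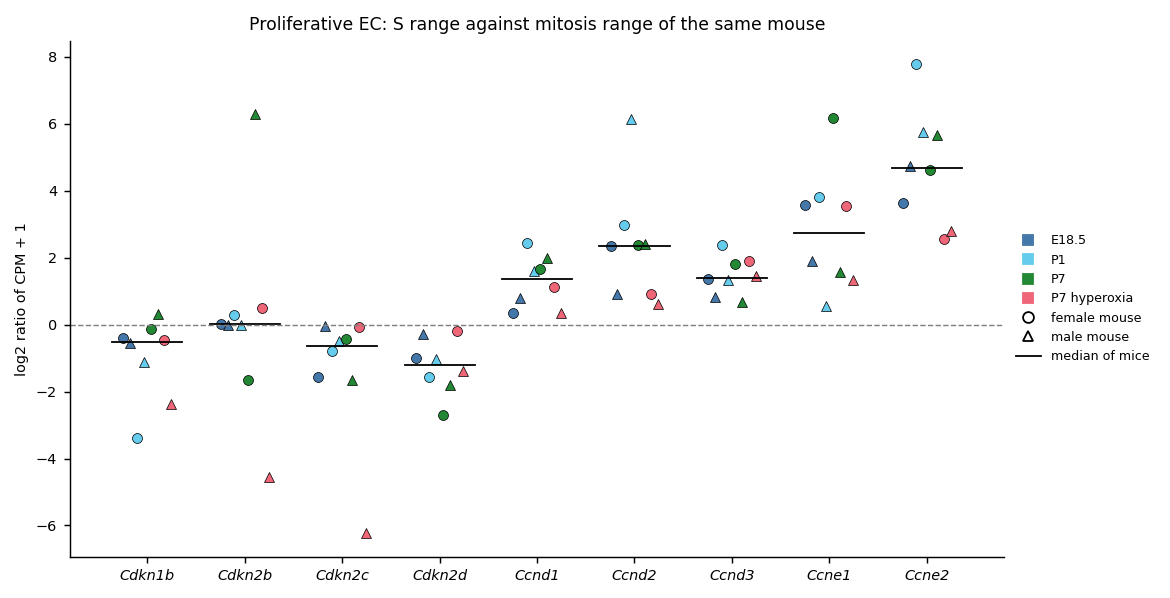
Log2 ratio of CPM plus 1 in proliferative EC of the S range over those of the mitosis range of the same mouse; each point is 1 of 8 mice (circle female, triangle male, coloured by group) and the black line is their median. All points of the 5 cyclins lie above 0, and all points of Cdkn2c and Cdkn2d lie below it.

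The ages were then compared within a class, with Early and Late Car4- capillaries taken as 1 class. The INK4 inhibitor Cdkn2b was nearly unread before birth. At E18.5 it had 2 reads in 2 of 591 cells of all labels, and at P1 it was read in 32 of 550 cells. Nonproliferative embryonic EC had 0.0104 and 0 CPM in the female and the male mouse, where the Car4- capillaries of P1 had 8.03 and 5.56 CPM. Both embryonic values thus lay below both values of P1, and the difference passed the edgeR quasi-likelihood test (log2 difference -10.29, SE 1.81, adjusted p = 0.0191). Cdkn2b was the 1 of 9 members called in this comparison, where 0.494% of 14967 genes were called. The sums held 1 read at E18.5 and 1212 reads at P1, a ratio of 1555 with a 95% counting interval of 278.5 to 61460. That interval takes reads as independent and covers counting error only. In the P1 female 1 cell gave 51.9% of these reads, and in the P1 male, with 2 cells read, 1 cell gave 97.8%. The adjusted p was 0.325 with limma on mean CPM, 0.0919 without the E18.5 female and 0.182 without the E18.5 male, so the call was lost with that method and without either embryonic mouse. Age and label changed together here and cannot be told apart. In the females that shared a run the values were 0.0104 and 8.21 CPM.

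From P1 on, Cdkn2b had its highest level in the Car4+ capillaries. There, in the female and the male mouse it had 40.2 and 7.23 CPM at P1, 97.1 and 70.0 at P7, and 234 and 352 at P21. Both mice of each age lay above both mice of the age before. The share of all genes with such a separation was counted for hyperoxia alone, where it was 16.6% to 19.8%. For no comparison of ages was it counted, so separations between ages are given here without a background. The fitted log2 difference was 2.03 (SE 0.75) for P7 against P1 and 1.78 (SE 0.74) for P21 against P7, neither passing adjustment (edgeR adjusted p of 0.73 and 0.858). In the male CD31-gate cells that shared a run, P21 had 306 and P7 had 182 CPM, a log2 ratio of 0.75. The CD31 gate gave 44 of 57 and 44 of 77 of the Car4+ capillaries at P21, and 37 of 42 and 18 of 24 at P7. With the CD31 gate alone the fitted difference of P21 against P7 was 1.20. The 8 immune markers summed to 16 (6 read) and 41.8 CPM (7 read) at P21, and to 5.525 (3 read) and 0 CPM at P7. The 8 mesenchymal markers summed to 26.1 and 24.7 CPM at P21 (6 read in each), and to 10.4 (7 read) and 2.72 CPM (5 read) at P7, with Dcn at 0 in all 4 mice. The part of these markers in the result was not tested. At 50000 reads per cell, the share of Car4+ capillaries with a read of Cdkn2b was 20.3% and 11.8% at P1, 21.4% and 54.2% at P7, and 47.4% and 41.6% at P21. In Car4- capillaries of the same mice that share lay between 0.82% and 8.85%, and the level between 3.38 and 17.5 CPM. In proliferative EC, Cdkn2b had 0.972 and 42.3 CPM at P7 against 0.0101 and 0 at E18.5, and 4 cells of the P7 male gave 379 of the 438 reads of P7 (edgeR adjusted p = 0.716, DESeq2 adjusted p = 0.000332).

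Cdkn1b, whose protein p27 holds cells in rest, was lower at P7 than at P1 in 3 classes. In Car4- capillaries it had 96.9 and 140 CPM at P1 and 13.8 and 39.8 at P7. Both P7 mice lay below both P1 mice, by -2.29 on the log2 scale (SE 0.70, edgeR adjusted p = 0.385, DESeq2 adjusted p = 0.0349). In Car4+ capillaries it had 149.5 and 208 CPM at P1 and 22.1 and 16.8 at P7, a log2 difference of -3.11 (SE 0.82, edgeR adjusted p = 0.73, DESeq2 adjusted p = 0.00745). In proliferative EC, with 65.1 and 214 CPM at P1 and 24.1 and 44.0 at P7, the difference was -2.27 (SE 0.73, edgeR adjusted p = 0.495, DESeq2 adjusted p = 0.0412). Without the P1 female mouse the edgeR adjusted p was 0.00635, but that fit called 1207 of 14408 genes. Its P1 group was 1 mouse with 9 cells, assumed to vary like the other groups. Venous EC overlapped, with 26.0 and 142 CPM at P1 and 11.3 and 58.8 at P7. No pair of mice shared a run for these comparisons.

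Cdkn2c differed the other way in Car4- capillaries, from 0.328 and 0.212 CPM at P1 to 16.3 and 4.82 at P7. The P7 values lay above the P1 values, by 5.22 on the log2 scale (SE 1.28, edgeR adjusted p = 0.385, DESeq2 adjusted p = 2.19e-05), though they came from 10 of 206 and 12 of 116 cells. In the same 2 groups the summed proliferation markers, with 5 of 5 genes read in every mouse of P7, were 93.5 to 95.7 CPM at P7 and 32.0 to 48.9 CPM at P1, and their part in the result was not tested. The epithelial markers summed to 34.9 and 74.9 CPM at P7 and 80.6 and 94.5 at P1, and the mesenchymal to 20.4 and 27.4 CPM at P7 and 8.71 and 13.2 at P1.

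**Figure D4:**
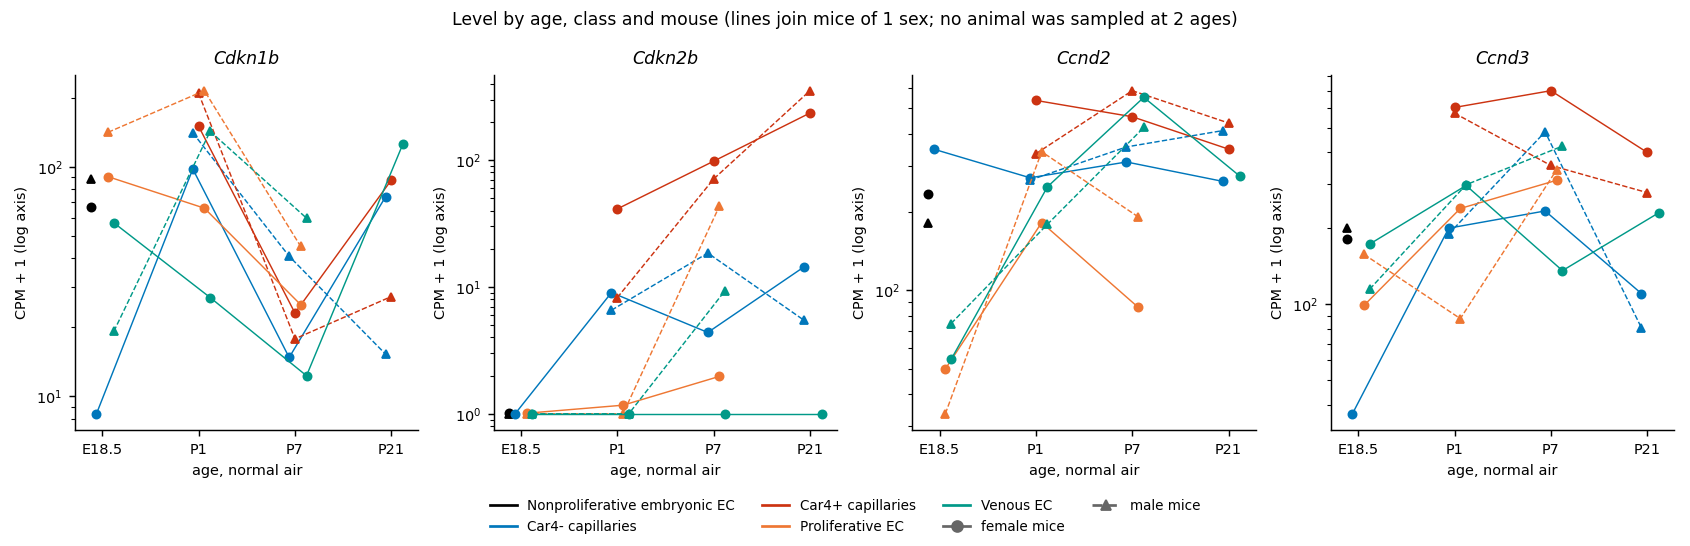
CPM plus 1 on a log axis against age in normal air for Cdkn1b, Cdkn2b, Ccnd2 and Ccnd3; colours are classes, circles with solid lines are female and triangles with dashed lines male mice, and each mouse was sampled at 1 age only. Cdkn2b of the Car4+ class is at 40.2 and 7.23 CPM at P1 and at 234 and 352 CPM at P21. Cdkn1b is lower at P7 than at P1 in the same sex in every class drawn at both of these ages.

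The D-type cyclins are given class by class, and edgeR called none of the 3 between ages. In proliferative EC, Ccnd2 had 48.9 and 32.5 CPM at E18.5, 181 and 340 at P1, and 85.1 and 191 at P7. Both mice of each postnatal age lay above both E18.5 mice, by 2.83 (SE 0.62) at P1 and 1.70 (SE 0.60) at P7 on the log2 scale. For P1 the adjusted p was 0.311 with edgeR and 0.000405 with DESeq2. Without the P1 female it was 0.00257 with edgeR, in a fit that again rests on the lone P1 male and called 924 of 14408 genes. In the P1 mice, however, Ccnd2 was read in 8 of 13 and 5 of 9 cells, and 1 cell gave 52.3% and 85.0% of its reads. Other marker lists differed between these mice as well, and of them the mesenchymal list overlapped between the ages. The 8 mesenchymal markers of these cells summed to 0.843 CPM (4 read) and 350 CPM (5 read) at P1, and to 4.33 (6 read) and 4.45 CPM (7 read) at E18.5. The 8 epithelial markers summed to 203 (5 read) and 49.8 CPM (1 read) at P1, with Epcam, Krt8 and Krt18 at 0 in both mice, and to 40.3 (7 read) and 35.95 CPM (5 read) at E18.5. The 4 erythroid markers were at 0 in both P1 mice and summed to 22.5 and 318 CPM at E18.5, all 4 read. The part of these markers in the result was not tested. The 2 females that shared a run had 181 CPM at P1 and 49.4 CPM at E18.5. In the male run, P7 had 210 and E18.5 33.2 CPM.

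Venous EC showed a like difference around birth, on 11 cells per mouse at E18.5. Ccnd1 had 18.6 and 26.0 CPM at E18.5 and 159 and 228 at P1, a log2 difference of 3.02 (SE 0.74, edgeR adjusted p = 0.317, DESeq2 adjusted p = 0.00425). It was read in 4 of 11 and 1 of 11 cells at E18.5. Ccnd2 had 53.3 and 73.5 CPM at E18.5 and 249 and 178 at P1, a difference of 1.61 (SE 0.50, edgeR adjusted p = 0.447). In neither gene did the mice of the 2 ages overlap. The 5 proliferation markers summed to 20.8 (3 read) and 7.14 CPM (1 read) at E18.5, with Ccnb1 at 0 in both, and to 75.4 and 23.6 CPM at P1, all 5 read. The 8 immune markers summed to 0.293 (2 read) and 0.335 CPM (3 read) at E18.5, and to 10.15 (3 read) and 3.81 CPM (7 read) at P1. The part of these markers in the result was not tested. At P7 the venous Ccnd1 was at 25.6 and 118 CPM, below both P1 mice, and Ccnd2 at 550 and 421 CPM, above both. Nonproliferative embryonic EC, by contrast, had Ccnd1 at 847 and 757 CPM against 308 and 464 in the Car4- capillaries of P1 (log2 difference 0.93, SE 0.41).

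Ccnd1 and Ccnd3 were lower in Car4- capillaries at P21 than at P7. Ccnd1 had 456 and 457.5 CPM at P7 and 114 and 178 at P21, a log2 difference of -1.50 (SE 0.42, edgeR adjusted p = 0.22, DESeq2 adjusted p = 0.0115). Ccnd3 had 234 and 482 CPM at P7 and 109 and 79.7 at P21, a difference of -1.81 (SE 0.42, edgeR adjusted p = 0.131, DESeq2 adjusted p = 0.0017). Ccnd2 overlapped, with 310 and 354 CPM at P7 and 261 and 409.5 at P21. The 5 proliferation markers, all read, summed to 95.7 and 93.5 CPM at P7 and to 37.8 and 44.7 at P21. The 8 epithelial markers summed to 34.9 and 74.9 CPM at P7 (7 read in each, Epcam at 0 in the female and Sftpb in the male), and to 132 (8 read) and 180 CPM (7 read, Krt8 at 0) at P21. The part of both lists in the result was not tested. The label changed with the age: 276 of the P7 cells were Early and 46 Late, and at P21 7 were Early and 533 Late. In the Late label alone, where only the female had enough cells at P7, Ccnd3 was at 13.5 CPM at P7 and at 111 and 69.2 at P21. Ccnd1 was there at 425.5 CPM at P7 and at 113 and 180 at P21. For Ccnd3 the direction of the class is thus not that of the Late label, and for Ccnd1 it is.

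Read against all genes, the counts of members called between ages were modest. In Car4- capillaries edgeR called 0 of 9 members for P7 against P1, as it called 0.0% of 14660 genes, and 2 of 9 members had an unadjusted p under 0.05, as had 11.3% of genes. For P21 against P7 it called 0 members and 0.266% of genes, with 2 members and 10.5% of genes at an unadjusted p under 0.05. DESeq2 called 2 members in each of these comparisons, and 2.71% and 4.72% of genes. In Car4+ capillaries, where Ccne1 was too low to test, the calls were 0 of 8 members and 0.0% of 12284 genes for P7 against P1 (unadjusted 2 members and 6.28%), and 0 members and 0.00814% for P21 against P7 (2 members and 5.24%). DESeq2 called 1 member and 2.11% of genes in the first, and 0 members and 2.07% in the second.

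In proliferative EC edgeR called 0 of 9 members and 0.0% of 13102 genes for P1 against E18.5, with 1 member and 7.42% of genes at an unadjusted p under 0.05. For P7 against P1 it called 0 members and 0.0% (unadjusted 2 members and 9.82%), and for P7 against E18.5 0 members and 0.0458% (3 members and 5.25%). DESeq2 called 1, 2 and 1 members in the 3 comparisons, and 3.86%, 4.73% and 1.53% of genes. In venous EC the calls were 0 of 9 members and 0.0162% of 12326 genes for P1 against E18.5 (unadjusted 2 members and 8.71%), and 0 and 0.0% for P7 against P1 (2 members and 3.21%). DESeq2 called 1 member and 4.41% of genes in the first, and 0 members and 0.608% in the second. In the comparison of embryonic EC with Car4- capillaries of P1, 2 of 9 members and 9.42% of genes had an unadjusted p under 0.05, and DESeq2 called 1 member and 3.82% of genes. With limma, 0 members were called in any comparison, and 0 to 57 genes.

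Of the 30 further genes of G1 and cell cycle control, edgeR called 1 in each of 2 comparisons between ages. E2f1, the E2F factor bound by Rb1, had 30 and 21.3 CPM in the Car4- capillaries of P7 and 0.0410 and 0.0324 at P21. It was lower at P21 (log2 difference -9.29, SE 1.19, edgeR adjusted p = 0.0118), a call lost with limma (adjusted p = 0.0796). The label changed there with the age, from mostly Early to mostly Late cells, so the 2 cannot be told apart. Cks1b, a small subunit of CDK complexes, was at 108 and 195 CPM in embryonic EC and at 30.2 and 30.7 in the Car4- capillaries of P1, and was higher before birth (log2 change 2.23, SE 0.46, edgeR adjusted p = 0.0479), a call lost with limma (adjusted p = 0.0787) and with the sex of the mice as a block (adjusted p = 0.0517). In the remaining comparisons between ages or in hyperoxia 0 of these genes were called. At an unadjusted p under 0.05, the P21 against P7 comparison of Car4- capillaries had 1 such gene higher and 8 lower, and its median over 30 genes was -0.90 against 0.06 for all genes.

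Hyperoxia at P7 was compared with normal air at P7 in 4 classes. The D-type cyclins Ccnd1 and Ccnd2 were higher in hyperoxia in both mice of Car4- capillaries and of venous EC, although edgeR called neither. In Car4- capillaries, Ccnd1 had 1310 and 1098 CPM in the female and male hyperoxia mice and 456 and 457.5 CPM in normal air. The groups did not overlap, and the log2 difference was 1.37 (SE 0.42, edgeR adjusted p = 0.887). Ccnd2 had 931 and 1074 CPM in hyperoxia and 310 and 354 in normal air, a difference of 1.57 (SE 0.38, edgeR adjusted p = 0.583, DESeq2 adjusted p = 0.00719). In the male mice that shared a run, Ccnd1 had 1098 and 503 CPM and Ccnd2 had 1074 and 395 CPM.

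The class of Car4- capillaries held almost only Early cells in hyperoxia, so the Early label is given alone. There Ccnd1 had 1315 and 1124 CPM in hyperoxia and 461 and 463 in normal air, and Ccnd2 932 and 1096 against 322 and 352. The values of the Early label thus lay close to those of the class. At 50000 reads per cell Ccnd1 was read in 97.4% and 84.1% of the Car4- capillaries in hyperoxia and in 57.8% and 84.1% in normal air. Ccnd2 was read in 96.7% and 92.4% against 58.7% and 77.9%. Ccnd3 overlapped between the groups (439 and 286 against 234 and 482 CPM).

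With the cells of both mice of a group pooled, the D-type cyclins were also seen together in a larger share of cells. At the same depth, 65.0% of 277 Early Car4- capillaries had a read of all 3 D-type cyclins in hyperoxia, against 41.4% of 273 in normal air, and 0.361% and 7.33% had none. In venous EC the shares with all 3 were 58.5% of 53 cells and 22.7% of 44 cells. In Car4+ capillaries they were 69.6% of 56 and 51.5% of 66 cells, and in proliferative EC 42.4% of 66 and 25.8% of 89 cells. Cells of 2 mice are pooled in these shares, so they describe the cells and carry no test. The mice of a group differed. Of the Early Car4- capillaries, 53.1% and 82.9% in the female and male of normal air had a read of Ccnd3. In hyperoxia 73.5% and 64.3% had one, so this gene overlapped. The share with all 3 was not taken per mouse, so whether it was larger in both hyperoxia mice is not shown.

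In venous EC, Ccnd1 had 400 and 380 CPM in hyperoxia and 25.6 and 118 in normal air, a log2 difference of 2.49 (SE 0.73, edgeR adjusted p = 1.0). Ccnd2 had 948 and 1287 CPM against 550 and 421, a difference of 1.21 (SE 0.49). The E-type cyclin Ccne1 had 49.8 and 22.3 CPM in hyperoxia and 0 reads in normal air. With 3 reads over the normal air group as a floor, Ccne1 was at least 335.5-fold higher, but only 3 of 23 and 3 of 30 cells held it and 1 cell gave 63.6% and 74.0% of its reads (DESeq2 adjusted p = 0.00283, edgeR adjusted p = 1.0). In these sums the 5 proliferation markers summed to 103 and 179 CPM in hyperoxia, all 5 read, and to 8.37 and 82.1 CPM in normal air, with Mki67, Birc5 and Cdk1 at 0 in the female. The 8 mesenchymal markers summed to 113 and 116 CPM in hyperoxia, with 5 and 6 of 8 read and Pdgfrb and Dcn at 0 in both mice, and to 1.31 and 50.6 CPM in normal air, with 5 of 8 read in each and Pdgfra and Dcn at 0 in both. Their part in the result was not tested.

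**Figure D5:**
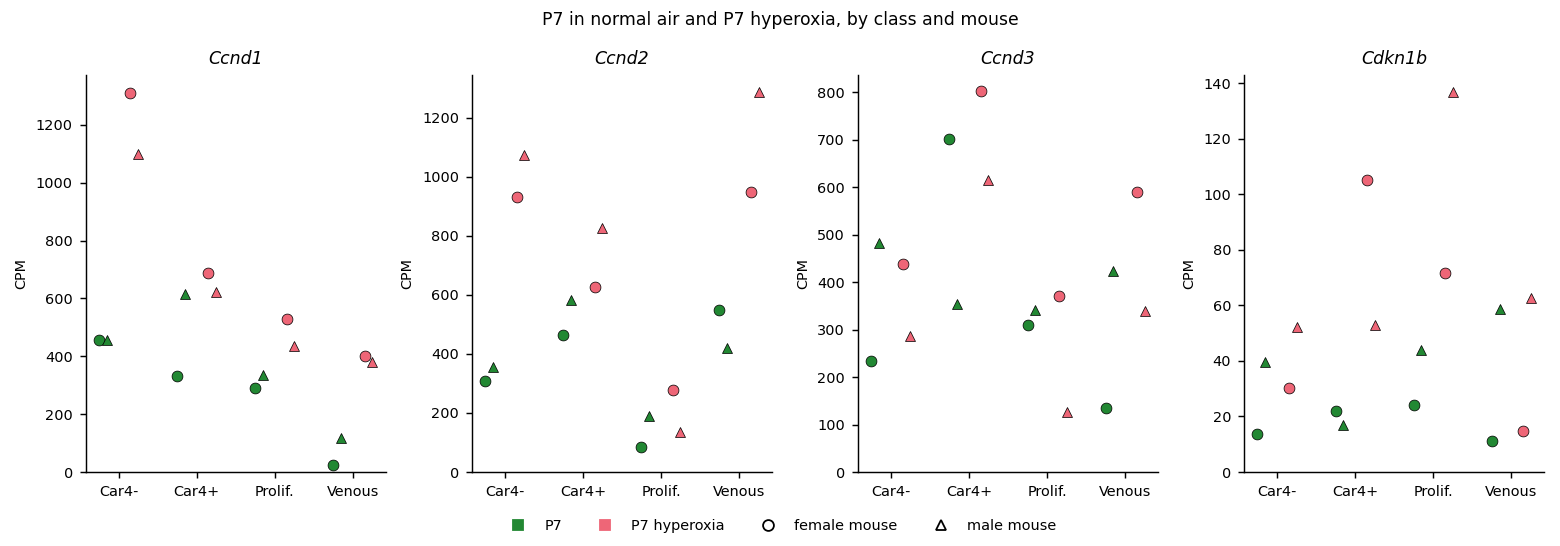
CPM of Ccnd1, Ccnd2, Ccnd3 and Cdkn1b at P7 in normal air (green) and P7 hyperoxia (red), by class; each point is the sum of 1 mouse (circle female, triangle male) and the axis starts at 0. In the Car4- class Ccnd1 lies at 1310 and 1098 CPM in hyperoxia and at 456 and 457.5 in normal air, and Ccnd3 overlaps between the treatments in every class.

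In the other classes the fitted difference was smaller. In Car4+ capillaries, Ccnd1 had 686 and 623 CPM in hyperoxia and 333 and 616 in normal air (log2 difference 0.14, SE 0.50). Ccnd2 had 626 and 827 CPM there against 463 and 583 (0.19, SE 0.47). In proliferative EC, Ccnd1 had 529 and 436 against 290 and 334 CPM (0.62, SE 0.41), and Ccnd2 279 and 135 against 85.1 and 191. In CPM, Ccnd1 thus had both hyperoxia mice above both normal air mice in 4 of the 4 classes compared and Ccnd2 in 3 of 4. These values lack the normalization factors (TMM) of the fits. In Car4+ capillaries the nearest values of Ccnd1 were 623 and 616 CPM, so the separation there is slight. Arterial EC I, with 1 usable mouse in normal air, was not compared, and there Ccnd1 went the other way. It had 183.5 CPM in that mouse and a mean of 64.03 CPM over 2 hyperoxia mice. Ccnd2 had 578.6 CPM and a mean of 650.6 CPM (SD 253.3). The classes come from the same mice, so they are not independent of each other. Such a separation was found for 18.1% of genes in Car4- capillaries, 19.8% in Car4+ capillaries, 16.6% in proliferative EC and 17.6% in venous EC. Between the hyperoxia effect in proliferative EC and that in Car4- capillaries, Ccnd1 differed by -0.76 on the log2 scale (SE 0.23), with an edgeR interaction p of 0.0143 before and 1.0 after adjustment. Here 0 of 9 members and 0.0% of 13781 genes passed adjustment with edgeR, and 1 member and 3.37% of genes had an unadjusted p under 0.05. With DESeq2 0 members and 0.726% of genes were called.

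Among the inhibitors, Cdkn1b was higher in hyperoxia in Car4+ capillaries (105 and 53.0 against 22.1 and 16.8 CPM) and in proliferative EC (71.7 and 137 against 24.1 and 44.0 CPM). The mice did not overlap in either class, and the log2 differences were 1.77 (SE 0.78) and 1.63 (SE 0.71), with edgeR adjusted p-values of 0.731 and 1.0. In Car4- capillaries and in venous EC Cdkn1b overlapped between the treatments. Cdkn2b was at 93.6 and 71.7 CPM in the Car4+ capillaries in hyperoxia and at 97.1 and 70.0 in normal air, a log2 difference of -0.26 (SE 0.72), while the male mice that shared a run had 71.7 and 182 CPM. Cdkn2c and Cdkn2d overlapped between the treatments in proliferative EC, at 126 and 206 against 123 and 246 CPM and at 175.5 and 463 against 257 and 332 CPM. Cdkn1a, a gene outside the list, stood in the Car4- capillaries at 2339 and 3403 CPM in hyperoxia and at 209 and 212 in normal air (edgeR adjusted p = 0.128), where Cdkn1b was at 30.2 and 52.4 against 13.8 and 39.8 CPM.

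The counts over the members in hyperoxia were as follows. In Car4- capillaries edgeR called 0 of 9 members and 0.0136% of genes, and 2 members and 5.52% of genes had an unadjusted p under 0.05. In Car4+ capillaries the calls were 0 of 8 and 0.0% (unadjusted 1 member and 6.16%), in proliferative EC 0 of 9 and 0.0% (1 member and 2.59%), and in venous EC 0 of 9 and 0.0% (3 members and 2.69%). DESeq2 called 1 member (Ccnd2) and 1.23% of genes in Car4- capillaries, and 1 member (Ccne1) and 0.755% in venous EC. It called 0 members in the other classes, with 2.18% of genes in Car4+ capillaries and 0.87% in proliferative EC. The median log2 difference over the members was 0.31 in Car4- capillaries, -0.06 in Car4+ capillaries, 0.12 in proliferative EC and 0.76 in venous EC. Over all genes tested it was -0.01, -0.06, 0 and 0.01 in the same order. In Car4- capillaries the 8 epithelial markers summed to 96.9 and 153 CPM in hyperoxia, with Epcam and Nkx2-1 at 0 in the female, and to 34.9 and 74.9 CPM in normal air, with Epcam at 0 in the female and Sftpb in the male. The part of these markers in the result was not tested. The 5 lymphatic markers summed to 4251 and 3924 CPM in hyperoxia (4 read in each) and to 911 CPM in each normal air mouse (3 and 4 read), with Ccl21a at 0 in all 4. They were also higher in Car4+ capillaries (2664 and 2269 against 568 and 1223 CPM) and in proliferative EC (3040 and 2742 against 1208 and 1041 CPM). Of these sums Lyve1, which was also read in venous EC, made up most: in Car4- capillaries it had 4023 and 3633 CPM in hyperoxia and 825 and 732 in normal air. Prox1, the defining factor of lymphatic EC, was at 0.0210 and 0.0411 CPM in the Car4- capillaries of hyperoxia. It was at 680 and 674 CPM in the lymphatic EC of the same mice. The last value comes from 6 cells of the male, under the minimum of 8 used for other sums.

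For each member the 2 genes with the most similar level over the 50 sums, by Pearson's r of log2(CPM plus 1) among 10428 genes, were taken as a description. The sums share mice, runs and depth, so no p is given. Cdkn2c was closest to Ska3 (r = 0.79) and Aurka (r = 0.78), genes of the mitotic spindle, and Ccne1 to Asf1b (r = 0.85) and Aurkb (r = 0.84). Ccne2 was closest to Clspn (r = 0.80) and Pclaf (r = 0.79), genes of DNA replication. Cdkn2b went with Rgs6 (r = 0.84) and Egflam (r = 0.84), and Ccnd1 with the basement membrane collagens Col4a1 (r = 0.76) and Col4a2 (r = 0.69). Ccnd3 was closest to Apln (r = 0.71), a marker of Car4+ capillaries, and Dnaja3 (r = 0.71). The likeness was weaker for Ccnd2 (Phlda3, r = 0.52, and Ifitm10, r = 0.52). Cdkn2d was closest to Oxct1 (r = 0.72) and Slc43a1 (r = 0.71), and Cdkn1b to Slc39a1 (r = 0.78) and D17H6S53E (r = 0.77). Among the members themselves the highest values were between Ccne1 and Ccne2 (r = 0.62), between Cdkn2c and Cdkn2d (r = 0.62) and between Cdkn2b and Ccnd3 (r = 0.57), and the D-type cyclins followed each other little (r from 0.11 to 0.20).

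The genes lie on 5 chromosomes of the mouse genome (positions from GENCODE M21 on GRCm38). Cdkn2b (chr4:89306299-89311039), Cdkn2c (chr4:109660876-109667189) and Ccne2 (chr4:11191351-11204779) are on chromosome 4. Cdkn1b (chr6:134920401-134925513) and Ccnd2 (chr6:127125162-127152193) are on chromosome 6, and Ccnd1 (chr7:144929931-144939925) and Ccne1 (chr7:38097984-38107534) on chromosome 7. Cdkn2d (chr9:21288410-21291407) is on chromosome 9 and Ccnd3 (chr17:47505051-47599691) on chromosome 17. Annotated genes overlap Ccnd1 (LTO1), Ccnd2 (9330179D12Rik and Gm43126), Ccnd3 (Bysl) and Ccne2 (Ints8), and whether the counting used strand is not given, so reads of these pairs may not be told apart. A pseudogene of Ccnd3, Ccnd3-ps, has a row of its own in the table, and reads that fit both could have been divided between them.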

How the data were processed

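Per the labels' protocols, sorted single cells were sequenced by a plate-based assay that uses the transposase Tn5. Molecular identifiers are not mentioned, so reads may not be independent molecules. The counting intervals and floors nevertheless treat reads as independent, and can be too narrow for that reason. The deposited table holds raw counts of reads per gene and cell. The submitters' processing notes name STAR 2.5.2b, HTSeq 0.10 and the build GRCh38, a human assembly name beside mouse symbols, so the build behind the counts is unresolved. Cells held 42095 to 2967985 reads (median 621406). Reads were summed per mouse and class (at least 8 cells), and groups were compared with edgeR 4.0.16 (quasi-likelihood, TMM, filterByExpr) in R 4.3.3, with p-values adjusted over all genes by Benjamini-Hochberg and called under 0.05. Each SE is the size of the log2 difference divided by the square root of the edgeR F statistic. It is approximate, above all where a group held few reads. Replicates were the mice. DESeq2 1.42.0, limma 3.58.1 and other settings served as alternatives. Labels were the authors', by a method not given in the sources used here, and no doublet caller was run. All members were named, and of 30 further cell cycle genes those called, with Cdkn1a, Cdkn1c, Cdk4, Cdk6, Cdk2, Rb1 and E2f1 allowed by name. The members and lists were chosen with earlier results of these data known. Scripts were tested on counts simulated for the hyperoxia comparisons. Of 100 genes with a true 4-fold change, 36% were called in Car4- capillaries and 2% in Car4+ capillaries. In proliferative EC it was 4% and in venous EC 7%. At 16-fold the shares were 86%, 44%, 44% and 37% in the same order. A gene not called is thus not shown to be unchanged. Intervals and floors (3 reads) cover counting error only, and thinning to 50000 reads left out 11 cells. Promoters came from RefSeq on GRCm38.p6.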

Additional observations from a re-analysis of the deposited data

How the results depend on the processing

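All 419 alternatives tried for 28 pairs of a member and a comparison kept the direction. These are only a part of all pairs, as many as had an unadjusted p under 0.05 with edgeR. In pairs with a clear difference a kept direction was likely beforehand, and it says nothing of the other pairs. The number of members called depended on the method. With DESeq2, 2 members were called in Car4- capillaries for P7 against P1, 2 for P21 against P7 and 1 for hyperoxia, 1 in Car4+ capillaries for P7 against P1, 1, 2 and 1 in proliferative EC (P1 against E18.5, P7 against P1, P7 against E18.5), and 1 each in venous EC for P1 against E18.5 and for hyperoxia. Without a filter on low counts, 1 was called in proliferative EC and 1 in venous EC for P1 against E18.5. With limma, 0 were called in embryonic EC against Car4- capillaries of P1. Leaving out each mouse in turn, the members called ranged from 0 to 2 in proliferative EC for P1 against E18.5 and for P7 against P1 (2 without the P1 female), from 0 to 1 in embryonic EC against Car4- capillaries of P1 (0 without either E18.5 mouse), from 0 to 1 for the interaction (1 without the female hyperoxia mouse), and from 2 to 3 for cycling against noncycling EC past the fold. The cause of these differences was not tested. Over all genes, DESeq2 called 75 to 692 genes per comparison, edgeR 0 to 74, edgeR without the filter 0 to 113, edgeR on thinned cells 0 to 117, limma 0 to 57, and edgeR with a mouse left out 0 to 1207. With 5 CPM as pseudocount the cycling ratio of Cdkn2c was 3.92 on the log2 scale.

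The replicate numbers stand for the sex of the mouse and name no shared litter or animal. With sex as a replicate block, the adjusted p of Cdkn2b in embryonic EC against Car4- capillaries of P1 was 0.0311, and the block changed no call of a member. The interaction had no such fit, since it already holds the mouse as a term. With 2 mice per group, and with Cdkn2b, Cdkn2c and Ccne1 read in few cells, single cells weigh heavily in these levels.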

Other observations

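A label of 10 cells, proliferative venous EC, came from the hyperoxia mice alone, 5 cells from each, and entered no comparison. In the female and the male mouse Cdkn2c had 103 and 167 CPM, Cdkn2d 304 and 463 CPM, Ccne1 155.5 and 362 CPM and Ccne2 43.5 and 143 CPM. The D-type cyclins Ccnd2 (502 and 564 CPM) and Ccnd3 (311 and 617 CPM) were read in all 10 cells. Ccnd1 had 234.5 and 20.2 CPM, Cdkn1b 11.9 and 156 CPM, and Cdkn2b 44.9 and 0 CPM, each differing widely between the 2 mice.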
